A study of Homo sapiens with 18 samples.

Results

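The NRF2 pathway was examined through 9 transcripts that were listed by name, namely NFE2L2, KEAP1, HMOX1, NQO1, GCLC, GCLM, SLC7A11, TXNRD1 and SRXN1, out of 58825 genes counted in each of 18 libraries. The list was made with earlier results of these data known. All 9 were found among the Ensembl identifiers and had reads in all 18 libraries. OVCAR-3, an established high-grade serous ovarian cancer line, was grown in stripped medium and exposed to DMSO (the solvent control) or to 1 µM of either i-BET858 or i-BET151. Both compounds are pan-BET inhibitors (BETi), which displace the BET proteins from acetylated chromatin. RNA was taken after 4 h or 24 h, with 3 replicate libraries of each of the 6 conditions. All groups are the same line at 1 dose. The study calls the replicates biological, without saying in the sources used here how they were separated, and the p-values measure the spread between these libraries.

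NRF2, the product of NFE2L2, is the main transcription factor of the antioxidant response. In unstressed cells KEAP1 holds NRF2 and passes it to a CUL3 ubiquitin ligase for degradation. Electrophiles and oxidants modify KEAP1, NRF2 accumulates, pairs with small MAF proteins and binds antioxidant response elements near genes for glutathione synthesis, thioredoxin recycling, quinone reduction and haem breakdown, while BACH1 occupies many of the same elements as a repressor. Since this control acts mostly on the protein, transcript levels of NFE2L2 and KEAP1 do not measure NRF2 activity.

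Library totals lay between 27323969 and 46299994 counts, and a count of 0 would have allowed up to 0.0653 to 0.109 CPM (counts relative to the library total, scaled with TMM factors), a limit that covers counting error only. Replicate 3 of every condition stood apart, with 17817 to 20642 genes detected against 23674 to 24947 in replicates 1 and 2, so fits without it were run throughout. All 10 markers of serous carcinoma listed, among them PAX8 and WT1, were detected in all libraries. Their summed level at 4 h was 8481 to 9939 CPM in the controls, 11256 to 11857 CPM for i-BET858 and 9592 to 10082 CPM for i-BET151, so i-BET858 stood highest. At 24 h both inhibitors stood below the controls, with 8649 to 10128 CPM with DMSO at 24 h, 6636 to 7090.2 CPM with i-BET858 and 6674 to 7248 CPM for i-BET151. KRT8 alone stood at 3739 to 7364 CPM over the 18 libraries (median 5528), so these sums rest largely on that keratin. Summed over 4 leukocyte markers the level was 0.0582 to 2.1 CPM, where CD68 was at 0 in 17 libraries, CD3E in 16 and PTPRC in 9, whereas CD14 was at 0 in none. Of 6 fibroblast markers COL1A1 stood at 21.1 to 46.6 CPM and COL1A2 at 0.175 to 3.62 CPM, both at 0 in none. PDGFRB was at 0 in 1 library, LUM in 12, and COL3A1 and DCN in 14 each. Of 3 endothelial markers VWF stood at 0.547 to 4.88 CPM, while PECAM1 was at 0 in 4 libraries and CDH5 in 6. The part of these differences in the results was not tested. In bulk RNA, fewer cells and less RNA per cell cannot be told apart.

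The elements that NRF2 binds share the core TGACNNNGC, which was searched on both strands. It overlaps the AP-1 motif TGANTCA in letters such as TGACTCAGC. The following stretches of 150 bases lie upstream of the 5 members whose transcripts rose in at least 1 comparison with DMSO, read from GRCh38 along the strand of the gene, and capitals mark the matched letters. They are the stretch with most matches in the 10000 bases before the start of the MANE Select transcript. Where stretches tied, the nearest to the start was taken, so the place of a lone match in a stretch follows from this rule.
HMOX1: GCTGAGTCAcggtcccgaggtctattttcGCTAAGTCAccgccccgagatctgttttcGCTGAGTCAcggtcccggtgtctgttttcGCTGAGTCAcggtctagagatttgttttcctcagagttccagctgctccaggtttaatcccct
NQO1: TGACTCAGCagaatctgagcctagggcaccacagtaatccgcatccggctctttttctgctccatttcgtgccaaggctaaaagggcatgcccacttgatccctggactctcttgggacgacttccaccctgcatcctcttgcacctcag
GCLC: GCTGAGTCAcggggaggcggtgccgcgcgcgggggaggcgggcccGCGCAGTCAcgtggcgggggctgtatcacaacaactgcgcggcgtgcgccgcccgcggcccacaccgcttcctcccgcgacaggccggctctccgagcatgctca
GCLM: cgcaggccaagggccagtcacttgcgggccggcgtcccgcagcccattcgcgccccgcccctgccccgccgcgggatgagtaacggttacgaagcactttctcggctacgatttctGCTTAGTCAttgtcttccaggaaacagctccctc
TXNRD1: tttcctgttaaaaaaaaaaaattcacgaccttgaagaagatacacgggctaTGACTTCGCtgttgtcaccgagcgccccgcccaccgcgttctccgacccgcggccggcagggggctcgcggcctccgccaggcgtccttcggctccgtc
The HMOX1 stretch (chr22:35372019-35372168, + strand) holds 4 matches, the first at position −9077 from the start, 3 of them with the AP-1 letters. That of NQO1 (chr16:69726866-69727015, − strand) has 1 match at −455, with the AP-1 letters, and that of GCLC (chr6:53548108-53548257, − strand) has 2, at −3156 with the AP-1 letters and at −3111 without them. GCLM (chr1:93909431-93909580, − strand) and TXNRD1 (chr12:104215629-104215778, + strand) each hold 1 match close to the start, at −34 and −99, without the AP-1 letters.

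Over the whole 10000 bases HMOX1 had 10 matches, a number that 1.2% of 19050 genes reach, and GCLC had 7, which 10.7% reach. KEAP1 had 5 matches, NQO1 3, GCLM, TXNRD1 and SRXN1 2 each, NFE2L2 1 and SLC7A11 0, beside a median of 4 over all genes. At least 1 match was present in 96.7% of such regions. RefSeq promoter windows (GRCh38.p14, 250 bases before to 50 after the start) were at hand for 7 of the 9 members. Some of these had more than a single window. GCLM held the core in its only window, TXNRD1 in each of its windows and KEAP1 in a single window but not in its other. Over all genes 13.3% of 35114 windows held it, a share by window and not by gene. A match describes letters and not a bound site.

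The levels of the members in control cells spanned a wide range when taken per kilobase of MANE Select transcript. TXNRD1, the cytosolic thioredoxin reductase, was the most abundant at 139 ± 18.1 CPM per kb (SD, n = 3) with DMSO at 4 h. NQO1, KEAP1 and NFE2L2 followed at 50.6 ± 1.73, 45.7 ± 1.5 and 41.6 ± 3.78 CPM per kb. GCLC stood at 13.3 ± 1.06, GCLM at 6.49 ± 0.679 and SLC7A11 at 3.0 ± 0.945 CPM per kb. HMOX1 was low at 1.14 ± 0.0595 CPM per kb, and SRXN1 had the lowest counted level at 0.306 ± 0.103. Of the 2528 bases of SRXN1, 2292 are shared with another gene, where reads may not have been counted. Its level per kb may thus be understated, and its place in this order is not settled. No neighbours in this order overlapped at 4 h with DMSO, whereas with DMSO at 24 h KEAP1, NQO1 and NFE2L2 overlapped in turn, and so did SLC7A11 and HMOX1.

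**Figure D1:**
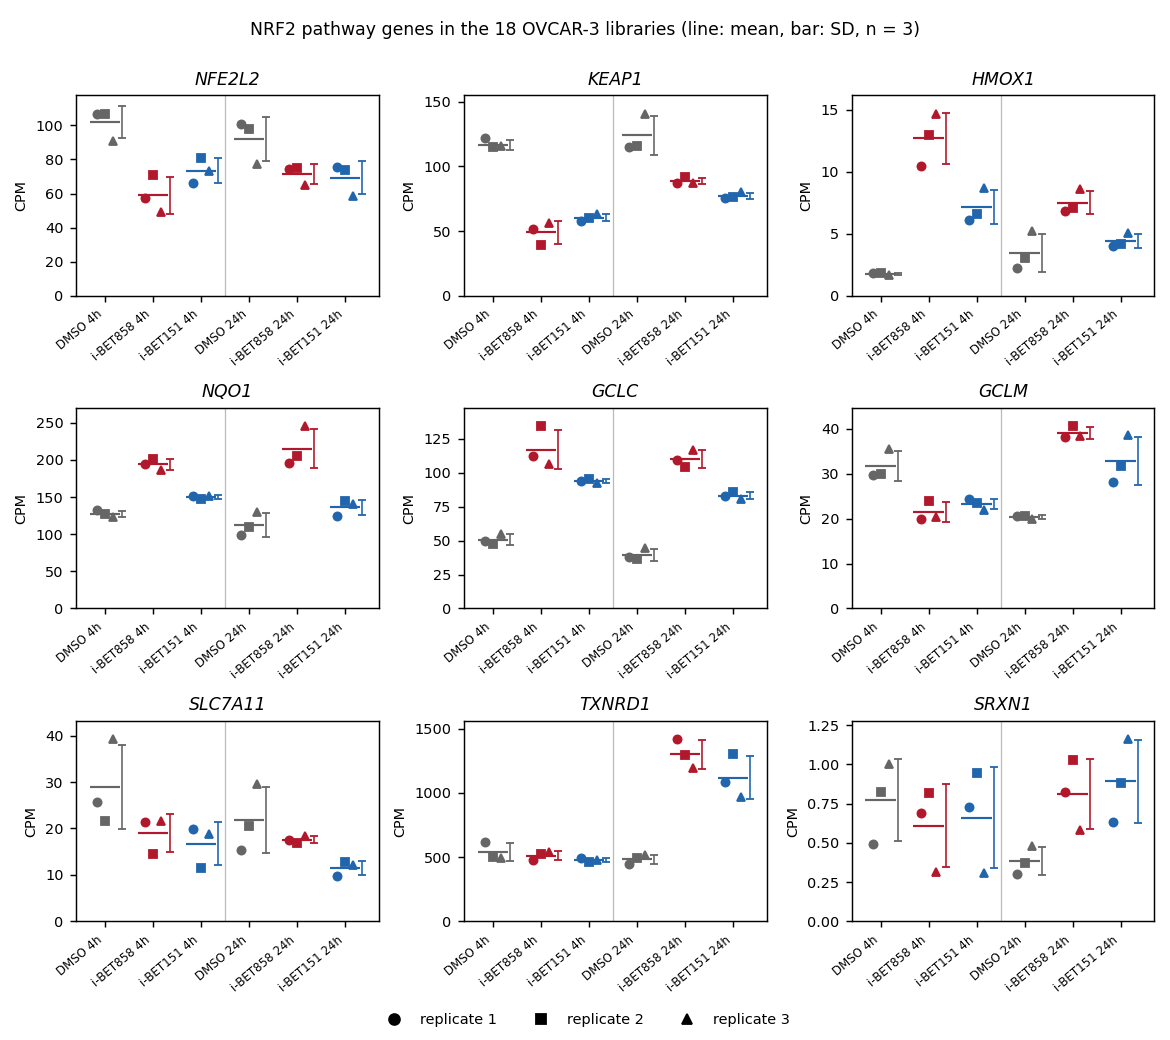
Level in CPM (linear axis from 0) of each of the 9 transcripts in every library, by condition, with DMSO in grey, i-BET858 in red and i-BET151 in blue. Symbols mark the replicate, horizontal lines the mean and side bars the SD of 3 libraries. HMOX1 is highest with i-BET858 at 4 h (10.5 to 14.7 CPM), while TXNRD1 is high only with either inhibitor at 24 h (971 to 1418 CPM).

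Exposure to i-BET858 for 4 h moved 6 of the 9 members past an adjusted p of 0.05 (edgeR quasi-likelihood test, Benjamini-Hochberg over all genes tested), with HMOX1, GCLC and NQO1 higher and KEAP1, NFE2L2 and GCLM lower. Among all 17192 genes tested, 30.8% were called in this comparison (14.5% higher and 16.3% lower). With i-BET151 at 4 h 4 members were called, HMOX1 and GCLC higher and KEAP1 and GCLM lower, beside 16.2% of all genes (7.81% higher and 8.43% lower). With the replicate number as a block NQO1 also passed as higher (adjusted p = 0.0313). NFE2L2 and SLC7A11 passed as lower (0.00316 and 0.000532), where 5616 of 17192 genes were called. At 24 h i-BET858 raised 5 members (HMOX1, NQO1, GCLC, GCLM and TXNRD1) and lowered 2 (KEAP1 and NFE2L2), beside 41.7% of 17157 genes (20.5% higher and 21.3% lower). For i-BET151 at 24 h 3 were higher (GCLC, GCLM and TXNRD1) and 3 lower (KEAP1, NFE2L2 and SLC7A11), beside 33.8% (17.2% higher and 16.6% lower). With libraries left out, 5 to 8 members were called for i-BET858 at 24 h and 5 to 9 for i-BET151. The 9 were called without replicate 3, where 9367 of 17297 genes were called. Median log2 fold changes of the members were −0.34 and −0.24 at 4 h and 0.9 and 0.32 at 24 h for i-BET858 and i-BET151, where the medians of all genes tested lay between −0.01 and 0.02. Both inhibitors were compared with the same DMSO libraries.

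**Figure D2:**
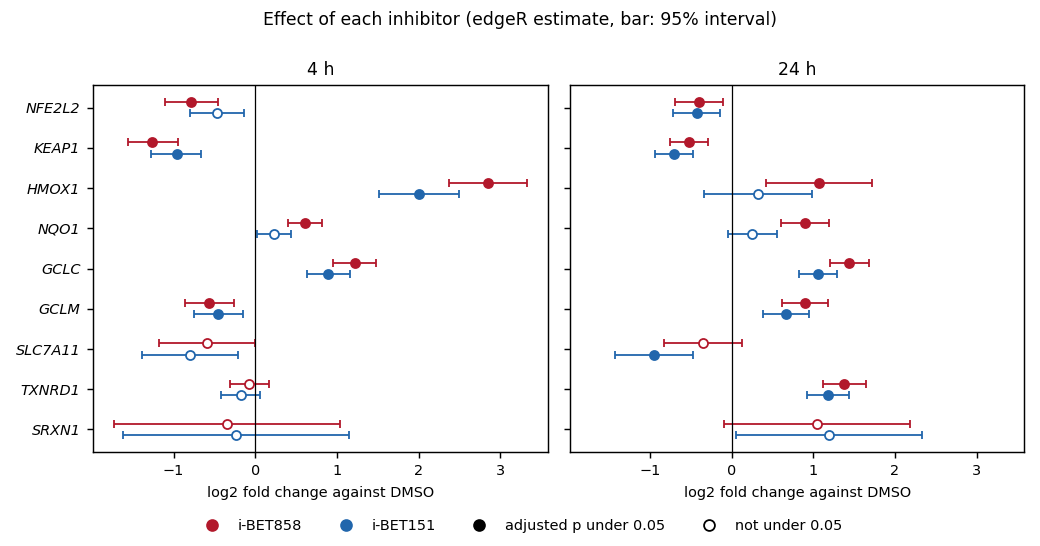
Estimated log2 fold change of each member against DMSO at 4 h and 24 h for i-BET858 (red) and i-BET151 (blue), with 95% intervals. Filled points have an adjusted p under 0.05. HMOX1 has the largest effect at 4 h (2.85 and 2.01), and TXNRD1 and GCLM lie above 0 at 24 h but not at 4 h.

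KEAP1 (chr19:10486125-10503558, − strand), the adaptor that presents NRF2 for ubiquitination, was down-regulated in all 4 comparisons with DMSO. At 4 h the control libraries had 122, 115 and 116 CPM, those with i-BET858 51.6, 39.0 and 56.1 CPM, and those with i-BET151 57.6, 60.4 and 63.2 CPM. The controls stood far above both treatments, and the treatments did not overlap each other either. KEAP1 fell by 1.26 on the log2 scale with i-BET858 (SE 0.14, adjusted p = 6.32e-05) and by 0.96 with i-BET151 (SE 0.14, adjusted p = 0.000914).

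After 24 h KEAP1 was at 115, 116 and 141 CPM with DMSO, at 87.5, 91.6 and 87.5 CPM with i-BET858 and at 75.4, 76.3 and 80.1 CPM with i-BET151. All 3 groups were apart, with the controls highest and i-BET151 lowest. The fall was 1.44-fold with i-BET858 (log2 −0.52, SE 0.11, adjusted p = 0.00268) and 1.63-fold with i-BET151 (log2 −0.71, SE 0.11, adjusted p = 0.000601). The effect of i-BET858 was smaller at 24 h than at 4 h, by 0.78 on the log2 scale in the drug-by-time test over all 18 libraries (adjusted p = 0.00214). For i-BET151 that difference was 0.28, with a 95% interval of −0.08 to 0.63 (adjusted p = 0.317).

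NFE2L2 (chr2:177218667-177392756, − strand), which encodes NRF2 itself, was lower in every treated library than in every control library of its time point. The DMSO libraries of 4 h had 107, 107 and 91.0 CPM, those of i-BET858 57.3, 70.8 and 49.0 CPM and those of i-BET151 66.1, 80.6 and 73.5 CPM. The treated groups overlapped each other. NFE2L2 fell by 0.78 on the log2 scale with i-BET858 (SE 0.15, adjusted p = 0.00236). For i-BET151 the estimate was −0.47 in log2 units (SE 0.15) at an adjusted p of 0.0543, which became 0.00316 with the replicate number as a block, 0.0377 with DESeq2 and 0.0138 without replicate 3, and ranged up to 0.199 over the alternatives.

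At 24 h NFE2L2 had 101, 97.7 and 77.2 CPM with DMSO, 74.4, 75.0 and 64.9 CPM with i-BET858, and 75.6, 74.1 and 58.3 CPM with i-BET151. Replicate 3 was the lowest library of each group. The log2 fold changes were −0.4 (SE 0.13, adjusted p = 0.03) and −0.43 (SE 0.13, adjusted p = 0.0276). Neither call was firm. Without DMSO replicate 1 the adjusted p was 0.116 for i-BET858 and 0.105 for i-BET151, without DMSO replicate 2 0.0997 and 0.0937, and without i-BET151 replicate 2 0.0529 and 0.0562. The i-BET858 call was also lost without i-BET858 replicate 1 (0.0641), 2 (0.0521) or 3 (0.117) and the i-BET151 call without i-BET151 replicate 3 (0.0861). Without replicate 3 in any group the adjusted p was 0.000172 and 0.000207.

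HMOX1 (chr22:35380361-35394214, + strand), the inducible haem oxygenase that releases iron, carbon monoxide and biliverdin from haem, had the largest response of the 9 genes at 4 h. It stood at 1.81, 1.83 and 1.66 CPM with DMSO (53 to 71 counts), at 10.5, 13 and 14.7 CPM with i-BET858 and at 6.11, 6.62 and 8.68 CPM with i-BET151. The 3 groups were fully separated. HMOX1 was 7.2-fold up-regulated by i-BET858 (log2 2.85, SE 0.22, adjusted p = 7.16e-06) and 4.03-fold by i-BET151 (log2 2.01, SE 0.22, adjusted p = 0.000182). Of 17192 genes tested, 307 had a higher log2 fold change with i-BET858, and 431 did so for i-BET151.

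The response of HMOX1 was smaller after 24 h, when the control libraries had 2.21, 3.0 and 5.19 CPM. Those with i-BET858 had 6.83, 7.11 and 8.6 CPM and those with i-BET151 4.03, 4.14 and 5.03 CPM. All i-BET858 libraries lay above the controls, whereas DMSO replicate 3 exceeded all 3 i-BET151 libraries. The change with i-BET858 was 2.1-fold (log2 1.07, SE 0.3, adjusted p = 0.0142), though at an adjusted p of 0.056 without DMSO replicate 2. For i-BET151 the estimate was 0.32 in log2 units (95% interval −0.34 to 0.98, adjusted p = 0.46). Without DMSO replicate 3 it was 0.76 (adjusted p = 0.0338), and without replicate 3 in any group 0.61 (adjusted p = 0.0145), whereas the lowest estimate over the alternatives was 0.07 and the highest adjusted p 0.883.

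In the drug-by-time test, the effect on HMOX1 was lower at 24 h than at 4 h by 1.73 on the log2 scale for i-BET858 (SE 0.37, adjusted p = 0.00196) and by 1.67 for i-BET151 (SE 0.37, adjusted p = 0.00625). The control level entered this difference. Between the DMSO libraries, HMOX1 was higher at 24 h in 9 of 9 pairs, with a log2 fold change of 0.97 (SE 0.27) at an adjusted p of 0.213, which was 0.0354 with the replicate block, 0.0456 with DESeq2 and at most 0.61 over the alternatives. Without replicate 3 that difference was 0.51 (adjusted p = 0.267).

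NQO1 (chr16:69706996-69726668, − strand), a quinone reductase and classical NRF2 target, was up-regulated by i-BET858 at both times. At 4 h it had 132, 127 and 123 CPM with DMSO, 195, 201 and 186 CPM with i-BET858 and 151, 147 and 151 CPM with i-BET151. None of the 3 groups overlapped. The rise with i-BET858 was 1.53-fold (log2 0.61, SE 0.1, adjusted p = 0.000609). For i-BET151 the estimate was 0.23 in log2 units (95% interval 0.02 to 0.44) at an adjusted p of 0.133, which ranged from 0.0313 with the replicate block to 0.46 over the alternatives.

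At 24 h NQO1 had 98.3, 109 and 130.3 CPM with DMSO and 196, 205 and 245 CPM with i-BET858, a 1.86-fold rise (log2 0.9, SE 0.13, adjusted p = 0.000363). The i-BET151 libraries, with 125 to 144 CPM, overlapped the controls through DMSO replicate 3. Their log2 fold change was 0.25 (95% interval −0.04 to 0.55, adjusted p = 0.173). It reached an adjusted p of 0.0182 with the replicate block, 0.0326 without DMSO replicate 3 and 0.00528 without replicate 3 in any group, and was as high as 0.445 under others.

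Glutamate-cysteine ligase, the rate-limiting enzyme of glutathione synthesis, consists of a catalytic subunit (GCLC) and a modifier subunit (GCLM), and SLC7A11 is the cystine carrier of system xc-, which brings in the cysteine precursor. Transcripts of the subunits differed in their response at 4 h. GCLC (chr6:53497341-53616970, − strand) had 49.6, 47.1 and 54.9 CPM with DMSO, 112, 134 and 106 CPM with i-BET858 and 94.0, 95.2 and 92.4 CPM with i-BET151. Each group was apart from the others, in that order of level from DMSO to i-BET151 to i-BET858. GCLC rose 2.33-fold with i-BET858 (log2 1.22, SE 0.12, adjusted p = 3.03e-05) and 1.86-fold with i-BET151 (log2 0.89, SE 0.12, adjusted p = 0.000625).

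GCLM (chr1:93885199-93909456, − strand) went the other way at 4 h. It had 29.6, 30 and 35.5 CPM with DMSO, 20.0, 23.9 and 20.4 CPM with i-BET858 and 24.3, 23.5 and 22.0 CPM with i-BET151. Controls lay above both treatments, which overlapped each other. GCLM fell by 0.56 on the log2 scale with i-BET858 (SE 0.14, adjusted p = 0.00977). The value for i-BET151 was −0.45 (SE 0.14) at an adjusted p of 0.0475, and this call was lost on leaving out any single DMSO or i-BET151 library of 4 h (adjusted p = 0.0871 without DMSO replicate 1, 0.0928 without 2, 0.174 without 3, and 0.116, 0.129 and 0.106 without i-BET151 replicates 1, 2 and 3), or i-BET858 replicate 1 (0.0604).

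By 24 h both subunits were up-regulated by both inhibitors. GCLC had 37.6, 36.1 and 44.3 CPM with DMSO, 109, 104 and 117 CPM with i-BET858 and 82.5, 86.0 and 80.6 CPM with i-BET151. The groups were again apart, and the rises were 2.71-fold (log2 1.44, SE 0.11, adjusted p = 4.16e-06) and 2.08-fold (log2 1.05, SE 0.11, adjusted p = 5.18e-05). GCLM had 20.6, 20.6 and 19.9 CPM with DMSO, 38.1, 40.5 and 38.3 CPM with i-BET858 and 28.1, 31.7 and 38.5 CPM with i-BET151. All treated libraries lay above all controls, with rises of 1.86-fold (log2 0.9, SE 0.13, adjusted p = 0.00025) and 1.59-fold (log2 0.66, SE 0.13, adjusted p = 0.00236).

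The effect on GCLM thus differed between the times, by 1.5 on the log2 scale for i-BET858 (SE 0.18, adjusted p = 1.4e-05) and by 1.13 for i-BET151 (SE 0.18, adjusted p = 0.000611). For GCLC the difference was 0.27 (95% interval −0.06 to 0.59, adjusted p = 0.224) and 0.18 (−0.14 to 0.51, adjusted p = 0.492). The controls entered the first of these too, since GCLM in DMSO was lower at 24 h than at 4 h in 9 of 9 pairs (log2 −0.64, SE 0.13). That difference had an adjusted p of 0.0749 with edgeR, 0.00948 with the replicate block and 0.00374 with DESeq2, and up to 0.398 over the alternatives.

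Per kilobase, the ratio of GCLC to GCLM at 4 h was 2.06 ± 0.0913 (SD, n = 3) in the controls, 7.04 ± 0.303 for i-BET858 and 5.21 ± 0.205 for i-BET151. None of these ranges met, with 1.99 to 2.16, 6.69 to 7.23 and 5.0 to 5.41. At 24 h the ratio was 2.5 ± 0.333 in the controls, 3.64 ± 0.315 for i-BET858 and 3.33 ± 0.566 for i-BET151. The i-BET858 libraries (3.3 to 3.93) were above the controls (2.26 to 2.88), and the i-BET151 libraries (2.7 to 3.79) overlapped both.

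**Figure D3:**
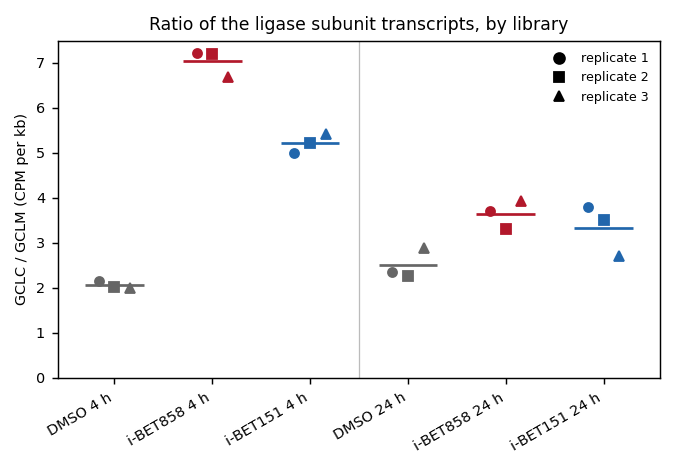
Ratio of GCLC to GCLM transcripts, each in CPM per kb, in every library by condition (linear axis from 0, horizontal lines mark the mean of 3 libraries, symbols the replicate). The ratio is 6.69 to 7.23 with i-BET858 at 4 h and 1.99 to 2.16 in the controls of that time.

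SLC7A11 (chr4:138164097-138242349, − strand) had replicate SDs of 0.795 to 9.12 CPM. At 4 h it had 25.8, 21.7 and 39.2 CPM with DMSO, 21.4, 14.4 and 21.6 CPM with i-BET858 and 19.8, 11.4 and 18.8 CPM with i-BET151. All treated libraries lay below all controls, narrowly so for DMSO replicate 2. The log2 fold changes were −0.59 (SE 0.27, adjusted p = 0.123) and −0.8 (SE 0.27, adjusted p = 0.0686), for which the replicate block gave 0.00325 and 0.000532, no filter on low counts 0.0169 and 0.00123, and total library size 0.0482 and 0.0457. With i-BET151 it also passed with DESeq2 (0.0261) and with all 18 libraries in a fit (0.038), and with i-BET858 it did not. Other settings went the other way. Without DMSO replicate 3 the values were −0.32 (adjusted p = 0.436) and −0.51 (adjusted p = 0.258), and without replicate 3 in any group the adjusted p was 0.212 and 0.0905. Without i-BET151 replicate 2 the value for that inhibitor was −0.58 (adjusted p = 0.217).

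At 24 h SLC7A11 had 15.4, 20.5 and 29.5 CPM with DMSO, 17.6, 16.8 and 18.4 CPM with i-BET858 and 9.76, 12.7 and 12.1 CPM with i-BET151. The i-BET858 libraries lay within the range of the controls and those of i-BET151 below it. SLC7A11 fell 1.93-fold with i-BET151 (log2 −0.95, SE 0.22, adjusted p = 0.00693), and the value for i-BET858 was −0.35 (95% interval −0.83 to 0.12, adjusted p = 0.222), with −0.55 at an adjusted p of 0.049 without DMSO replicate 1, −0.04 at 0.888 without DMSO replicate 3 and −0.09 at 0.639 without replicate 3 in any group.

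TXNRD1 (chr12:104215779-104350307, + strand), which keeps thioredoxin reduced, had 618, 505 and 491 CPM with DMSO at 4 h, 475, 524 and 537 CPM with i-BET858 and 493, 464 and 475 CPM with i-BET151. The groups overlapped. The log2 fold changes were −0.07 (95% interval −0.31 to 0.17, adjusted p = 0.693) and −0.18 (−0.42 to 0.06, adjusted p = 0.325).

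At 24 h the picture for TXNRD1 was different, with 447, 493 and 514 CPM in the controls, 1418, 1293 and 1192 CPM with i-BET858 and 1082, 1301 and 971 CPM with i-BET151. Every treated library was far above every control. TXNRD1 rose 2.61-fold with i-BET858 (log2 1.38, SE 0.12, adjusted p = 9.55e-06) and 2.27-fold with i-BET151 (log2 1.18, SE 0.12, adjusted p = 4.54e-05). The effects at 24 h exceeded those at 4 h by 1.5 (SE 0.16, adjusted p = 5.31e-06) and 1.38 (SE 0.16, adjusted p = 5.23e-05) on the log2 scale.

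Over the 9 members, the drug-by-time test called 4 for i-BET858 (KEAP1, GCLM and TXNRD1 upwards, HMOX1 downwards), where 27.2% of 18154 genes were called (14.6% higher and 12.6% lower), and 3 for i-BET151 (GCLM and TXNRD1 upwards, HMOX1 downwards), where 13.8% were (6.99% higher and 6.82% lower). For NFE2L2 the effect of i-BET858 was less negative at 24 h by 0.42 (adjusted p = 0.151), a difference with an adjusted p of 0.0215 with the replicate block, 0.0495 without i-BET858 replicate 2 of 4 h and up to 0.38 over the alternatives. For NQO1 it was larger by 0.33 (adjusted p = 0.13), with 0.0309 without DMSO replicate 3 of 24 h and up to 0.302 over the alternatives.

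SRXN1 (chr20:646615-653200, − strand), sulfiredoxin, repairs over-oxidised peroxiredoxins and had only 10 to 40 counts in a library. Its exons share 2292 of 2528 bases with a read-through gene on the same strand (ENSG00000270299, 0 to 18 counts a library), and the counting program used leaves out reads that fall on more than a single gene. SRXN1 stood at 0.491, 0.824 and 1.0 CPM with DMSO at 4 h and at 0.303, 0.37 and 0.478 CPM at 24 h. At 24 h i-BET858 gave 0.827, 1.03 and 0.585 CPM and i-BET151 0.634, 0.882 and 1.16 CPM, all above the controls. The log2 fold changes of 1.04 (95% interval −0.1 to 2.18, adjusted p = 0.134) and 1.19 (0.05 to 2.33, adjusted p = 0.102) did not pass the test, and without replicate 3 they were 1.42 (adjusted p = 0.0082) and 1.12 (adjusted p = 0.0364). With at least 10 counts required in every library the adjusted p was 0.0432 and 0.0298, while over the alternatives the adjusted p reached 0.375 and 0.336. At 4 h the values were −0.34 (−1.73 to 1.04) and −0.24 (−1.62 to 1.15), intervals that include 2-fold changes in both directions.

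Of the other members, exons of NFE2L2, NQO1, GCLC and SLC7A11 overlap genes on the opposite strand, and those of NFE2L2 and GCLC also share bases with a gene on their own strand. The strand setting of the counting is not given in the sources used here, so reads of such partners may not be separable.

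To ask whether the inhibitors differed from each other, i-BET858 was compared directly with i-BET151 at the same dose and time, as 1 pair of compounds at 2 times. No member passed an adjusted p of 0.05 with edgeR at 4 h or at 24 h, beside 0.971% and 0.21% of all genes tested. At an unadjusted p under 0.05 there were 3 members at 4 h (HMOX1, NQO1 and GCLC) and 4 at 24 h (the same and SLC7A11), all higher with i-BET858. Among all genes 2042 of 17192 at 4 h and 1953 of 17157 at 24 h had such a p in either direction. DESeq2 and the replicate block called HMOX1 and NQO1 at 4 h and NQO1 and GCLC at 24 h. Over all genes these fits also called more, 667 of 12808 with DESeq2 and 1655 of 17192 with the block at 4 h, and 424 of 15103 and 749 of 17157 at 24 h, where the test without a block had called 167 and 36.

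HMOX1 was 1.79-fold higher with i-BET858 than with i-BET151 at 4 h (log2 0.84, 95% interval 0.38 to 1.3, adjusted p = 0.0943), and the adjusted p was 0.00955 with the replicate block and 0.0104 with DESeq2. At 24 h the ratio was 1.69-fold (log2 0.75, 95% interval 0.11 to 1.4, adjusted p = 0.35), at an adjusted p of 0.0171 without replicate 3. All 9 pairs of libraries had the same direction at both times. NQO1 was 1.3-fold higher at 4 h (log2 0.38, interval 0.17 to 0.59, adjusted p = 0.0945, block 0.00632, DESeq2 0.0158) and 1.56-fold at 24 h (log2 0.64, interval 0.35 to 0.94, adjusted p = 0.0911, block 0.00304, DESeq2 0.00237, all 18 libraries 0.0161, no filter 0.000141). Without DMSO replicate 3 NQO1 passed at 24 h (adjusted p = 0.041). Over the alternatives the adjusted p reached 0.321 and 0.627 for HMOX1 and 0.324 and 0.26 for NQO1 at 4 h and 24 h.

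GCLC was higher with i-BET858 by 0.33 at 4 h (95% interval 0.06 to 0.59, adjusted p = 0.282) and by 0.39 at 24 h (0.15 to 0.62, adjusted p = 0.183, block 0.0346, DESeq2 0.0446, at most 0.387 over the alternatives) on the log2 scale. SLC7A11 differed by 0.59 at 24 h (0.11 to 1.08, adjusted p = 0.316), and 0.21 at 4 h (−0.38 to 0.8, adjusted p = 0.868). For KEAP1 the order of the compounds was not the same at the 2 times, with −0.3 at 4 h (−0.6 to 0.01, adjusted p = 0.438) and 0.18 at 24 h (−0.05 to 0.42, adjusted p = 0.6). TXNRD1 differed by 0.11 (−0.13 to 0.35) and 0.2 (−0.06 to 0.46), GCLM by −0.11 (−0.41 to 0.2) and 0.23 (−0.05 to 0.51), and NFE2L2 by −0.31 (−0.64 to 0.02) and 0.03 (−0.26 to 0.32). SRXN1 gave −0.11 (−1.5 to 1.29) and −0.15 (−1.25 to 0.95). When replicate 3 was left out, HMOX1, NQO1, GCLC, GCLM and SLC7A11 all passed at 24 h with i-BET858 higher. Of all 17297 genes tested without it, 1261 passed in either direction.

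**Figure D4:**
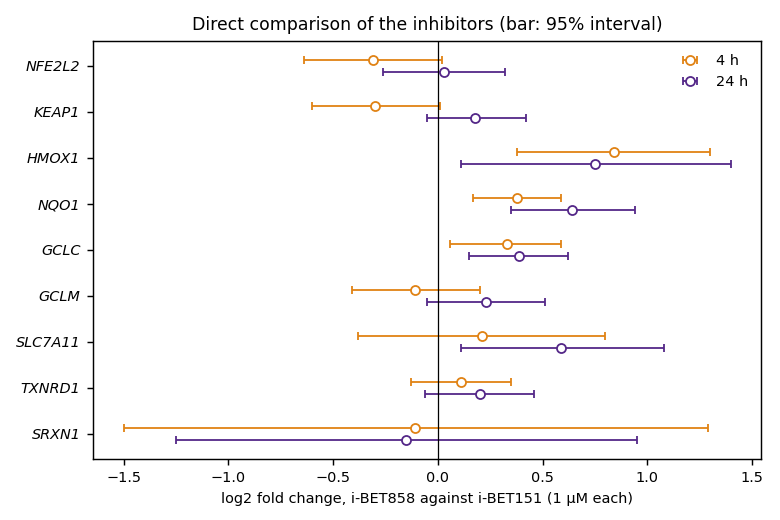
Log2 fold change of i-BET858 against i-BET151, each at 1 µM, for the 9 members at 4 h (orange) and 24 h (purple), with 95% intervals. No point passed an adjusted p of 0.05, and the intervals of HMOX1, NQO1 and GCLC lie above 0 at both times.

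Between DMSO libraries of 24 h and 4 h no member was called by edgeR, beside 0.0386% of 18154 genes. At an unadjusted p under 0.05 there were 3, HMOX1 higher and GCLM and GCLC lower at 24 h, beside 1664 of 18154 genes. DESeq2 and the replicate block each called HMOX1 and GCLM, beside 177 of 13257 and 375 of 18154 genes. GCLC was lower by 0.36 (SE 0.11, adjusted p = 0.246) with no overlap. The 4 h and 24 h libraries had no common control, so time in culture and the handling of the 2 sets cannot be told apart.

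Beyond the 9 members, 93 other genes of the pathway were listed by role, of which 92 matched an identifier (SOD2 did not) and 88 were tested at 4 h and 85 at 24 h. With i-BET858 at 4 h 38 were higher and 5 lower, with a median log2 fold change of 0.48 where that of all genes was 0.02, and 30.8% of all genes were called (14.5% higher and 16.3% lower) beside 48.9% of the listed genes. With i-BET151 at 4 h 18 were higher and 2 lower (median 0.24), a total of 20 that was 39 with the replicate block and 9 to 13 without DMSO replicate 1, 2 or 3 or i-BET151 replicate 1 or 2. This is 22.7% beside 16.2% of all genes. At 24 h the split was 37 higher and 17 lower with i-BET858 (median 0.27) and 27 and 19 with i-BET151 (median 0.13), or 63.5% and 54.1% of the listed genes beside 41.7% and 33.8% of all genes. Most genes are named under the comparison in which their change was among the largest of their list. This does not mean that the other inhibitor left them unaltered.

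Among 12 regulators and partners of NRF2, 1 rose and 2 fell with i-BET858 at 4 h, and 7 rose and 2 fell at 24 h. These are 25% and 75.0% of the list, beside 30.8% and 41.7% of all genes. With i-BET151 1 rose and 0 fell at 4 h, and 5 rose and 2 fell at 24 h, or 8.33% and 58.3% beside 16.2% and 33.8%. With the replicate block the 4 h counts were 4 higher and 3 lower with i-BET858 (58.3% beside 45.4% of all genes), and 1 higher and 1 lower, the latter MAFG, with i-BET151 (16.7% beside 32.7%). MAFG with i-BET151 had a log2 fold change of −0.48 at an adjusted p of 0.0595, and of 0.00231 with the block and 0.0402 with DESeq2. With i-BET858 MAFG fell at 4 h (log2 −0.99, adjusted p = 0.000677) and rose at 24 h (log2 0.58, adjusted p = 0.000302). SQSTM1, the autophagy receptor that can sequester KEAP1, rose from 217 ± 23.3 CPM (SD, n = 3) to 460.0 ± 13.3 CPM with i-BET858 at 4 h (log2 1.09, SE 0.1, adjusted p = 2.36e-05). MAFK, a small MAF partner of NRF2 and BACH1, fell from 38.0 ± 4.49 to 18.1 ± 5.85 CPM in the same comparison (log2 −1.07, SE 0.21, adjusted p = 0.00278). At 24 h MAFK was higher with i-BET858 (log2 0.27, adjusted p = 0.042), a call lost under 12 of 18 alternatives (adjusted p up to 0.198).

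Of 23 tested genes of glutathione synthesis, use and recycling, 13 rose and 1 fell with i-BET858 at 4 h, or 60.9% beside 30.8% of all genes. With i-BET151 6 rose and 1 fell, or 30.4% beside 16.2%, which became 10 and 1 with the replicate block (47.8% beside 32.7%). With i-BET858 at 4 h GLRX, a glutaredoxin that reduces glutathionylated proteins, went from 6.02 ± 1.12 to 19.7 ± 3.46 CPM (log2 1.71, SE 0.23, adjusted p = 0.000272). Its mitochondrial relative GLRX2 went from 12.0 ± 3.26 to 27.6 ± 3.3 CPM in the same comparison (log2 1.21, SE 0.21, adjusted p = 0.00123). CHAC1, which on the contrary degrades glutathione, rose with i-BET858 from 13.4 ± 2.04 to 42.0 ± 13.4 CPM (log2 1.65, SE 0.26, adjusted p = 0.000766). Its value for i-BET151 at 4 h was 0.92 (adjusted p = 0.0372, up to 0.147 over the alternatives). At 24 h CHAC1 fell with i-BET151 (log2 −0.82, adjusted p = 0.00857), and its value for i-BET858 was 0.05 (adjusted p = 0.877).
At 24 h 10 of 22 rose and 5 fell with i-BET858, and 6 rose and 7 fell with i-BET151, or 68.2% and 59.1% beside 41.7% and 33.8% of all genes. GPX8, a peroxidase of the endoplasmic reticulum, fell from 35.1 ± 1.4 CPM with DMSO to 6.31 ± 0.75 with i-BET858 (log2 −2.51, SE 0.15, adjusted p = 1.27e-06) and 8.42 ± 1.38 with i-BET151 (log2 −2.08, SE 0.15, adjusted p = 7.36e-06). The glutathione transferase GSTM4 fell with i-BET858 (log2 −1.73, SE 0.32, adjusted p = 0.00152) and with i-BET151 (log2 −0.94, SE 0.31, adjusted p = 0.04), though the second call was lost without a filter and without any 1 of DMSO replicates 1, 2 and 3, i-BET151 replicates 1 and 2 and i-BET858 replicates 1 and 2 (adjusted p up to 0.174). Of the microsomal transferases, MGST1 and MGST2 fell with both too. MGST1 changed by log2 −1.11 with i-BET151 (SE 0.17, adjusted p = 0.000554) and −1.02 with i-BET858 (adjusted p = 0.000615). MGST2 changed by log2 −1.09 with i-BET151 (SE 0.15, adjusted p = 0.000388) and −1.09 with i-BET858 (adjusted p = 0.00025). MGST3, named after its values were seen, rose with i-BET858 (log2 0.39, adjusted p = 0.0262, up to 0.109 over the alternatives). Its value for i-BET151 was 0.25 (adjusted p = 0.144). GLRX remained raised with i-BET858 at 24 h (log2 1.44, SE 0.16, adjusted p = 6.58e-05).

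Thioredoxins and peroxiredoxins, with 14 genes tested, had 10 higher and 0 lower with i-BET858 at 4 h and 6 higher and 0 lower with i-BET151, or 71.4% and 42.9% beside 30.8% and 16.2% of all genes. The replicate block gave 10 higher and 0 lower for i-BET151 (71.4% beside 32.7%). SESN2, a stress-induced sestrin, rose from 12.9 ± 2.37 CPM to 62.8 ± 8.89 CPM with i-BET858 (log2 2.29, SE 0.19, adjusted p = 9.4e-06) and to 43.1 ± 8.1 CPM with i-BET151 (log2 1.74, SE 0.19, adjusted p = 0.000159). TXNIP, which inhibits thioredoxin rather than assisting it, rose too (log2 1.65, SE 0.28, adjusted p = 0.00113, and log2 1.28, SE 0.28, adjusted p = 0.0104). SESN1 also rose with i-BET858 (log2 1.14, SE 0.2, adjusted p = 0.00128) and with i-BET151 (log2 0.99, SE 0.2, adjusted p = 0.00653).
At 24 h 5 were higher and 4 lower with i-BET858, and for i-BET151 4 and 3, or 64.3% and 50% beside 41.7% and 33.8%. The mitochondrial reductase TXNRD2 fell from 54.8 ± 3.62 CPM to 15.6 ± 1.22 CPM with i-BET858 (log2 −1.85, SE 0.14, adjusted p = 4.3e-06) and 19.0 ± 2.91 CPM with i-BET151 (log2 −1.55, SE 0.14, adjusted p = 2.24e-05), opposite to TXNRD1 at that time. SESN1 and TXNIP, by contrast, were raised by both. SESN1 changed by log2 1.05 with either (SE 0.12, adjusted p = 8.28e-05 with i-BET858 and 0.000137 with i-BET151). TXNIP changed by log2 0.95 with i-BET858 (SE 0.18, adjusted p = 0.00146) and 1.02 with i-BET151 (SE 0.18, adjusted p = 0.00127).

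NADPH supply had 4 of 7 genes higher and 0 lower with i-BET858 at 4 h, or 57.1% beside 30.8% of all genes, and 3 higher and 0 lower at 24 h, or 42.9% beside 41.7% of all genes. The 0 lower was not firm, since TKT and MTHFD2 passed as lower with the replicate block (adjusted p = 0.0186 and 0.0111), with total library size and without replicate 3 (0.0428 and 0.00129). With the block 3 were higher and 2 lower, or 71.4% beside 52.0%. For i-BET151 2 were higher and 0 lower at 4 h (28.6% beside 16.2%), or 5 and 0 with the block (71.4% beside 32.7%), and 2 higher and 2 lower at 24 h (57.1% beside 33.8%), the latter being TKT (log2 −0.42, adjusted p = 0.00688) and ME1 (log2 −0.56, adjusted p = 0.0149, or 0.0713 without DMSO replicate 2), named after their values were seen. In haem and iron handling 3 of 9 rose and 1 fell with i-BET858 at 4 h, and 3 rose and 2 fell at 24 h, or 44.4% and 55.6% beside 30.8% and 41.7% of all genes. With i-BET151 2 rose and 0 fell at each time, or 22.2% beside 16.2% and 33.8%. These counts moved with the replicate block, to 6 higher and 1 lower for i-BET858 at 4 h (77.8% beside 45.4%), and for i-BET151 to 3 and 1 at 4 h (44.4% beside 32.7%) and 4 and 3 at 24 h (77.8% beside 45.9%). The 3 that passed as lower at 24 h with the block were SLC40A1 (adjusted p = 0.00293), SLC48A1 (8.86e-05) and TFRC (0.00321), which also passed without replicate 3. HMOX2, the constitutive haem oxygenase, went from 43.3 ± 3.52 to 111 ± 6.77 CPM with i-BET858 at 24 h (log2 1.32, SE 0.1, adjusted p = 3.96e-06), and FTL, the ferritin light chain, from 227 ± 53.7 to 493 ± 48.3 CPM (log2 1.08, SE 0.17, adjusted p = 0.000471). In superoxide and peroxide removal 1 of 3 tested genes rose at 4 h (33.3% beside 30.8% of all genes) and 2 rose at 24 h (66.7% beside 41.7%) with i-BET858. For i-BET151 these were 0 (beside 16.2%, and 1 with the block) and 2 (66.7% beside 33.8%).

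Detoxifying enzymes and transporters had 6 of 20 higher and 1 lower with i-BET858 at 4 h, and 7 of 18 higher and 4 lower at 24 h, or 35.0% and 61.1% beside 30.8% and 41.7% of all genes. With i-BET151 1 was higher and 1 lower at 4 h, and 6 higher and 5 lower at 24 h, or 10% and 61.1% beside 16.2% and 33.8%. The replicate block gave 9 higher and 2 lower for i-BET858 at 4 h (55.0% beside 45.4% of all genes) and 4 and 2 for i-BET151 (30% beside 32.7%). EPHX1, microsomal epoxide hydrolase, rose from 59.0 ± 9.77 to 201 ± 24.9 CPM at 4 h (log2 1.77, SE 0.15, adjusted p = 1.11e-05) and from 61.6 ± 7.59 to 212 ± 17.8 CPM at 24 h (log2 1.74, SE 0.12, adjusted p = 2.75e-06) with i-BET858. It also rose with i-BET151 at 4 h, to 137 ± 15.1 CPM (log2 1.21, SE 0.15, adjusted p = 0.000351). OSGIN1, named for its induction by oxidative stress, rose with i-BET858 at 24 h (log2 1.67, SE 0.24, adjusted p = 0.000336). TRIM16 fell with i-BET151 at 4 h (log2 −1.21, SE 0.22, adjusted p = 0.00337) and 24 h (log2 −1.16, SE 0.16, adjusted p = 0.000383). The fall of TRIM16 with i-BET858 was −1.17 at 4 h (adjusted p = 0.00177) and −0.53 at 24 h (adjusted p = 0.0235), the latter lost with all 18 libraries in a fit and without i-BET858 replicate 1 or 2 or DMSO replicate 3 (adjusted p up to 0.0975). The aldo-keto reductase AKR1C3 rose at 24 h with i-BET151 (log2 1.2, SE 0.26, adjusted p = 0.00492) and i-BET858 (log2 1.21, adjusted p = 0.00358). PIR fell with i-BET151 at 24 h (log2 −1.02, SE 0.24, adjusted p = 0.00849), and its value for i-BET858 was −0.28 (adjusted p = 0.385).
Levels near or under 1 CPM carried less firm calls. CBR3 (log2 2.46, adjusted p = 0.0159) and ABCC2 (log2 2.21, adjusted p = 0.0104) passed with i-BET858 at 4 h, but CBR3 had an adjusted p of 0.081 without DMSO replicate 1, 0.0769 without DMSO replicate 2 and 0.075 without i-BET858 replicate 1, and ABCC2 of 0.0508 without DMSO replicate 2. AKR1C1 passed with i-BET858 at 24 h (log2 1.69, adjusted p = 0.0414) but not with the replicate block (0.0516) nor without DMSO replicate 2 (0.128) or 3 (0.091), i-BET151 replicate 1 (0.0649) or 2 (0.0661), or i-BET858 replicate 2 (0.11) or 3 (0.101).

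**Figure D5:**
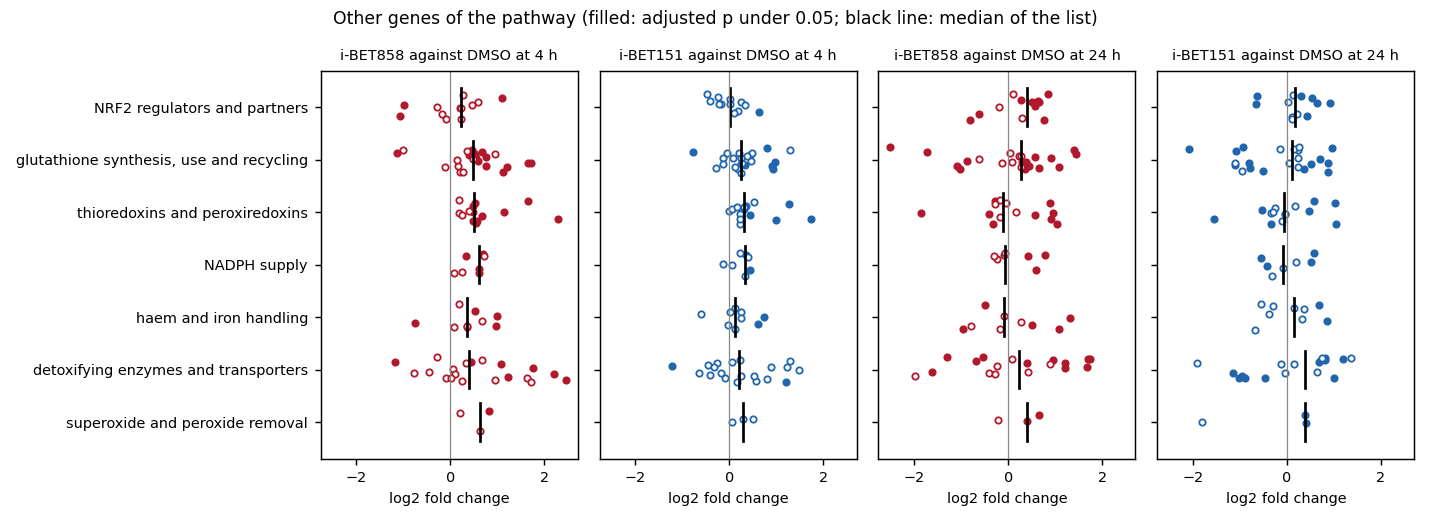
Log2 fold change of each of the other pathway genes tested against DMSO, by list, in the 4 comparisons. Filled points have an adjusted p under 0.05 and the black line is the median of the list. With i-BET858 at 4 h most called points lie above 0 (38 of 43), whereas at 24 h they lie on both sides (37 higher and 17 lower).

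Finally, the genes whose log2 CPM ran most closely with each member over the 18 libraries were sought among 12704 genes. For NQO1 this was PRDX1, a peroxiredoxin (Pearson r = 0.952), then ASAH1 (0.929). GCLC was followed most closely by TTC7A (0.984) and DNAJC6 (0.982), TXNRD1 by GLUD1 (0.969) and CDK19 (0.966), and KEAP1 by PIGC (0.969) and CNOT9 (0.961). HMOX1 ran with CCDC85B (0.954) and SOCS1 (0.953), NFE2L2 with URGCP (0.96) and S100PBP (0.924), and GCLM with PSME4 (0.921) and ARAP2 (0.916). The likeness was lower for SLC7A11, with DAPP1 (0.853) and TRIM16L (0.836), and for SRXN1, with PIGA (0.84) and ZNF451 (0.756). These values describe libraries that share treatments, times and depth, and each gene was picked as the best of many.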

How the data were processed

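The deposited values were whole-number counts per gene in 18 libraries. According to the study's methods, the authors enriched poly-A RNA, aligned paired-end reads to GRCh38 with STAR and took gene counts from it. DESeq2 normalisation followed in the study, and the deposited values, whole numbers with unequal totals, are the counts before it. The annotation and strand column are not given in the sources used here. Symbols (58472 of 58825 identifiers, 99.4%) and positions came from GENCODE 44. In R 4.3.3, the libraries of a time point entered a fit with edgeR 4.0.16 (TMM, filterByExpr, quasi-likelihood test, 3 groups of 3 libraries), and drug-by-time terms and DMSO over time in a fit of all 18. Calls had a Benjamini-Hochberg adjusted p under 0.05. Fold changes are edgeR estimates, with Wald standard errors and 95% intervals. Scripts were tested on simulated data.

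Members and lists were chosen with earlier results of these data known. All 9 members were named. Other pathway genes were named where, in a comparison with DMSO, they were among at most 3 of their list with the largest change that were called and changed at least 2-fold. MAFG, MGST3, TKT, ME1, MTHFD2, SLC40A1, SLC48A1 and TFRC were named outside this rule, with their values known. The nearest 2 genes by Pearson r had an average log2 CPM of at least 1 (prior count 2).

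Replicate numbers come from the labels. Deviations from the group mean of same-numbered libraries correlated across genes at 0.125 to 0.344 (4 h) and 0.145 to 0.33 (24 h), all above 0.1, against −0.311 to 0.216 and −0.304 to 0.285 for libraries with different numbers, and were taken as paired. These ranges overlap. Deviations within a group cancel out, so positive values in the first set push the second set down, and the contrast is not independent evidence of pairing. The fits without a block stayed the main ones, as the study's methods name none. Alternatives were the replicate block, DESeq2 1.42.0 (which the study used), its size factors, total library size, no filter, at least 10 counts in every library, only the groups compared, all 18 libraries, each library left out, and no replicate 3. No pair of replicates agreed within counting noise (chi-square per degree of freedom of 4.19 to 66.1).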

Additional observations from a re-analysis of the deposited data

Results flagged for a closer look

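Effects that differed between 4 h and 24 h by the drug-by-time test (edgeR, all 18 libraries, adjusted p under 0.05) are listed here as log2 differences, 24 h less 4 h. KEAP1 differed by 0.78 for i-BET858, since its fall was smaller at 24 h. HMOX1 differed by −1.73 for i-BET858 and −1.67 for i-BET151, its rise being smaller at 24 h, and GCLM by 1.5 and 1.13, with a fall at 4 h and a rise at 24 h. The fall of GCLM with i-BET151 at 4 h was not firm (adjusted p = 0.0475 with edgeR, lost under 11 of 18 alternatives). TXNRD1 differed by 1.5 and 1.38, with a rise only at 24 h.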

How the results depend on the processing

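Of 1647 values of the 9 members under the alternatives, 1548 kept their direction and their side of the threshold, 24 lost the call, 51 gained it and 24 changed sign, all 24 between values that did not pass the test. The number of members called with i-BET151 at 4 h was 4, and 7 with the replicate block, which over all genes called 5616 of 17192 in place of 2791. Between the inhibitors at 4 h it was 0, and 2 with DESeq2 and 2 with the replicate block. At 24 h it was 0, and 1 without a filter, 2 with DESeq2, 2 with the replicate block, 1 with all 18 libraries in a fit, and 0 to 5 with libraries left out, where 5 was without replicate 3. For DMSO over time it was 0, and 2 with DESeq2 and 2 with the replicate block. The block changed no other count of members by over 1.5 times. It called 39 other pathway genes with i-BET151 at 4 h in place of 20 (9 to 27 with libraries left out), and counts of single lists that it moved stand beside them in the text. The cause was not tested.

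Signs turned as follows, in log2 units, with ranges over the libraries left out. With i-BET858 at 4 h TXNRD1 ranged from −0.17 to 0.04 and SRXN1 from −0.62 to 0.19, and with i-BET151 SRXN1 ranged from −0.58 to 0.32. Between the inhibitors at 4 h SLC7A11 ranged from −0.01 to 0.37 and SRXN1 from −0.46 to 0.24, and at 24 h SRXN1 from −0.35 to 0.3 and NFE2L2 from −0.06 to 0.11 (−0.03 with total library size). The change of the i-BET151 effect over time ranged from −0.05 to 0.18 for NFE2L2 (−0.0 with at least 10 counts in every library), −0.04 to 0.16 for NQO1 (−0.02 with at least 10 counts) and −0.4 to 0.15 for SLC7A11. KEAP1 in DMSO over time ranged from −0.03 to 0.13. Total library size moved the median of all genes to −0.136 with i-BET858 at 4 h, and no call of a member for i-BET858 at 4 h was lost. Among the values of other pathway genes that the rule of size names, 593 kept their call and 16 lost it. Values added beside them (such as GSTM4, ME1 and CHAC1 with i-BET151, and TRIM16, MAFK and MGST3 with i-BET858 at 24 h) are not in this count. SRXN1 had 10 to 40 counts a library, and low depth cannot be told apart from reads left out because they overlap the read-through gene.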
